A study of Mus musculus with 21 samples.

Results

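Epiblast stem cells (EpiSCs) labelled as mouse line A2 were compared with naive embryonic stem cells of the same label, over all genes, in 6 of the 21 RNA sequencing libraries of the series. Membership follows the labels: 3 libraries are of A2 EpiSCs and 3 of A2 cells labelled naive. Per the labels, A2 embryonic stem cells were placed in a pseudopregnant mouse, the EpiSCs were taken out once implantation had occurred, and they were kept in KO DMEM with KOSR, activin A and bFGF. The naive cells came from ground state A2 cells, grown in DMEM with fetal bovine serum, 1000 U/mL LIF and 2i, by withdrawing 2i for 4 days. A further group of A2 cells, labelled EPL, had been moved from the ground state into serum medium with LIF at 330 U/mL plus L-proline at 400 uM over 4 days, and was used where the EpiSC levels were set against a second state. EpiSCs and naive cells differ in origin, base medium, serum and growth factors at once, and the parts of these in any difference cannot be told apart. The labels count neither embryos nor derivations behind the EpiSC libraries, so these may be repeats of 1 line.

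Naive embryonic stem cells resemble the epiblast before implantation. They depend on LIF, which signals through STAT3, and on a network of transcription factors that includes Klf4, Esrrb, Tfcp2l1 and Zfp42 (Rex1). EpiSCs are the primed state of pluripotency, held in culture by activin (Nodal-type) and FGF signalling, and are known for keeping Pou5f1 and Sox2 while losing the naive factors and gaining Fgf5, Otx2 and low levels of primitive streak genes such as T (brachyury).

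The EpiSC libraries held 19171874 to 22517799 counts and the naive libraries 17306036 to 20468946. Levels are given as CPM, counts per 1000000 counts of the library, with each library's depth adjusted by TMM, and differences as log2 of EpiSC over naive, with a standard error (SE) where one is given. A number alone in parentheses after a gene is its log2 difference. Calls rest on edgeR's quasi-likelihood test over all 21 libraries, at a Benjamini-Hochberg adjusted p under 0.05. Of 16575 genes tested, 11655 were called (70.3%): 6476 were higher in EpiSCs (39.1%) and 5179 were lower (31.2%). The higher group made up 55.6% of the called genes, and 67% when libraries were scaled to their total count instead. At least 2-fold, 3536 genes were higher (21.3%) and 1341 were lower (8.09%). The 6 libraries did not overlap between groups for 12076 genes (72.9%). Since most genes were called, a list in which 2 of 3 members changed is at the background. The median log2 difference of all genes was 0.08, and 0.26 under total-count scaling. Spearman's rho over the genes tested was 0.990 to 0.997 between EpiSC libraries, 0.994 to 0.996 between naive libraries and 0.896 to 0.926 between the groups.

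The labelled identity was checked first with 11 markers of EpiSCs. Of these, 10 were higher in EpiSCs, and Otx2, a transcription factor of the formative and primed epiblast, was lower. Of 10 naive markers, 9 were lower and Pecam1, which encodes an adhesion molecule, was not called (log2 -0.09, adjusted p = 0.263). All 6 markers of pluripotency in general were lower. All 10 fibroblast markers were higher, and Dcn, Lum and Postn among them had no count in any naive library. The levels of the wider list of 22 fibroblast and stromal genes summed to 3479, 3211 and 4376 CPM in EpiSC libraries, against 76.9, 74.6 and 83.4 CPM in naive libraries. The EpiSC sum was 47.1 times the naive sum (exact two-sided permutation p = 0.1, the smallest that 3 against 3 can give), and no other group of the series exceeded 119 CPM. None of the 22 genes was at 0 in an EpiSC library. Of the blood markers, Ptprc stayed below the filter and Hbb-bt had no count, while Lyz2 was higher. The line label was checked as well. The summed level of 7 Y-linked genes was 2.71 to 5.17 CPM in EpiSC libraries, against 63.4 to 112.1 CPM in every other A2 library. Chromosome 1 carried 5.96 to 6.17% of nuclear counts in EpiSC libraries, against 7.29 to 8.0% in the other A2 libraries, and chromosome 8 carried 6.30 to 6.42%, against 4.81 to 5.02%. The libraries labelled A2 EpiSC thus stood apart from all other A2 libraries in these 3 measures. Whether they share the line of the label cannot be told from these measures. The line they come from was not tested, and differences between lines cannot be told apart from differences between states. In bulk RNA, fewer cells that express a gene and less RNA of it per cell cannot be told apart. The part of the fibroblast genes in the results below was not tested.

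**Figure D1:**
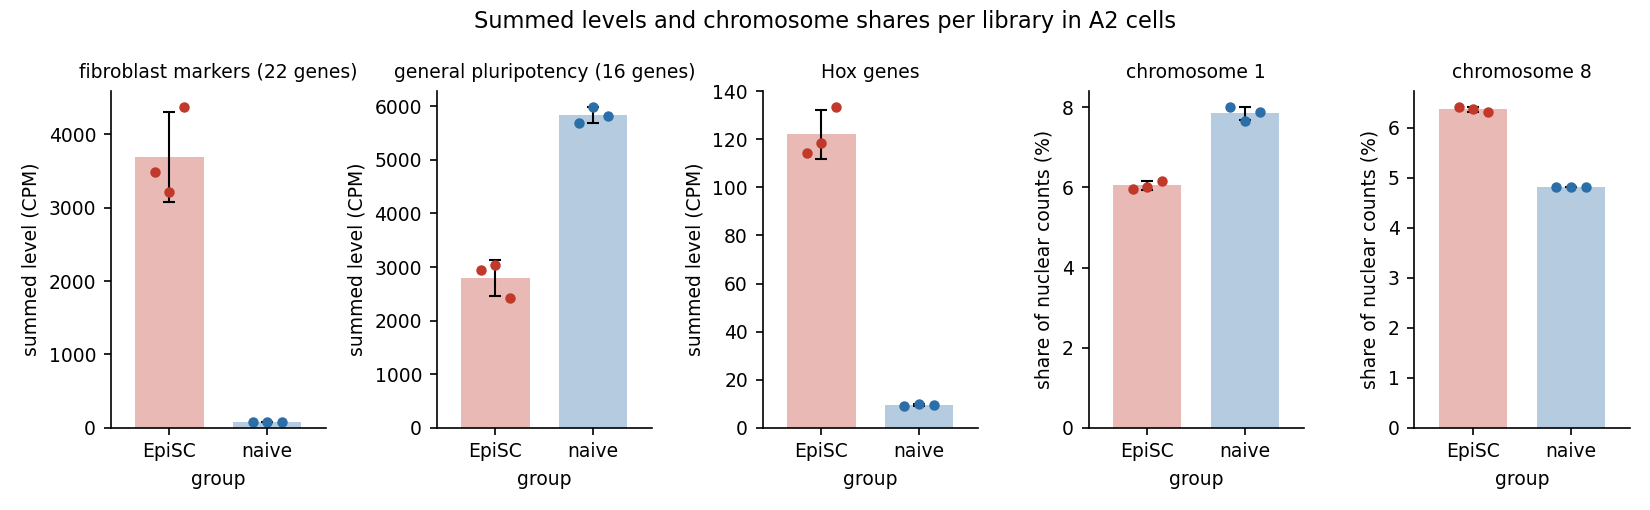
Bars give each group's mean, whiskers its SD and points its 3 libraries, EpiSC left of naive, for the summed CPM of the fibroblast, general pluripotency and Hox lists and for the percent of nuclear counts on chromosomes 1 and 8. The fibroblast sum (3211 to 4376 CPM in EpiSC libraries, against 74.6 to 83.4 CPM in naive libraries), the Hox sum and the chromosome 8 share are higher in EpiSC libraries, and the general pluripotency sum and the chromosome 1 share are lower, with no overlap between the groups in any panel.

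The core pluripotency factors were present in EpiSCs, each below its naive level. Pou5f1 (Oct4, chromosome 17, 35506018 to 35510772 on GRCm38), the factor that defines pluripotent cells, had 514, 554 and 399.7 CPM in EpiSC libraries, against 1148, 1344 and 1195 CPM in naive libraries. The groups were far apart, and EpiSC replicate 3 was the lowest library. The log2 difference of Pou5f1 was -1.33 ± 0.10 (SE, adjusted p = 1.73e-10). Sox2, the partner of Pou5f1 on DNA, had 243, 263 and 203 CPM in EpiSC libraries, against 497, 495 and 513 CPM in naive libraries (log2 -1.09 ± 0.07, adjusted p = 1.32e-11). Nanog had 307, 348 and 253 CPM in EpiSC libraries, against 505, 541 and 492 CPM in naive libraries (log2 -0.76 ± 0.08, adjusted p = 4.83e-08). Neither gene overlapped between groups, and Nanog fell least of these factors. Against EPL cells, the Nanog difference was -0.10 ± 0.08 (SE, adjusted p = 0.286), so that no difference from EPL was detected.

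Of the 16 general pluripotency genes tested, 15 fell, and the median log2 difference was -1.02, against 0.08 over all genes. Foxd3, a forkhead factor, had the deepest fall, with 8.64, 8.17 and 7.46 CPM in EpiSC libraries, against 65.8, 69.9 and 66.9 CPM in naive libraries (log2 -3.06). Utf1, a chromatin-bound factor of pluripotent cells, had a log2 difference of -1.92, Lin28a, an inhibitor of let-7 processing, -1.66, and the zinc finger factor Sall4 -1.48. The exception was Lin28b, the paralog of Lin28a, which rose to 45.7, 46.5 and 51.9 CPM in EpiSC libraries, against 33.4, 30 and 31.7 CPM in naive libraries (log2 0.60). The E-cadherin gene Cdh1 fell least, with 329.8, 332 and 319 CPM in EpiSC libraries, against 397, 357 and 401 CPM in naive libraries (log2 -0.23, adjusted p = 0.00771), a call that was lost under total-count scaling (-0.05, adjusted p = 0.565).

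Most naive factors were lower in EpiSCs, and all 12 transcription factor genes of the list fell and kept counts in every EpiSC library. Of 26 genes tested, 22 fell and 3 rose, leaving Pecam1, and the median log2 difference was -1.40. Tfcp2l1, a LIF target that sustains self-renewal, had 112, 111 and 133 CPM in EpiSC libraries, against 745, 598 and 735 CPM in naive libraries (log2 -2.55 ± 0.14, adjusted p = 4.43e-13). Esrrb, an orphan nuclear receptor, had 259, 261 and 192 CPM in EpiSC libraries, against 754, 724 and 784 CPM in naive libraries (log2 -1.67 ± 0.11, adjusted p = 1.01e-11). Zfp42, the Rex1 zinc finger protein, had 336, 362 and 254 CPM in EpiSC libraries, against 988, 1057 and 1102 CPM in naive libraries (log2 -1.72 ± 0.09, adjusted p = 4.42e-13). For each of these genes all EpiSC libraries lay below all naive libraries and well above 0.

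Klf4 changed least among the fixed naive genes. It had 149, 156 and 118 CPM in EpiSC libraries, against 203, 189 and 207 CPM in naive libraries (log2 -0.50 ± 0.10, adjusted p = 0.000126), again with no overlap. EpiSCs were above EPL cells, which averaged 58.9 ± 6.96 CPM of Klf4 (SD, n = 3), by a log2 difference of 1.26 ± 0.10 (SE, adjusted p = 3.86e-10). The deepest falls were in Nr0b1 (Dax1, a nuclear receptor that represses transcription), with 30.6, 30.9 and 18.3 CPM in EpiSC libraries, against 243, 278 and 243 CPM in naive libraries (log2 -3.26), and in Tdh, the threonine dehydrogenase that feeds glycine and acetyl-CoA in mouse embryonic stem cells, with 73.6, 80.3 and 72.8 CPM in EpiSC libraries, against 522, 596 and 587 CPM in naive libraries (log2 -2.91). Nr5a2 and Klf2, both transcription factors of the naive network, differed by -2.29 and -2.42. The 3 that rose were Nlrp14 (2.73), Spp1, which encodes the secreted matrix protein osteopontin (1.10), and Calcoco2 (0.34). The Calcoco2 call was lost without EpiSC replicate 3 (log2 0.14, adjusted p = 0.352), and without naive replicate 2 (0.21, adjusted p = 0.214) or 3 (0.35, adjusted p = 0.0671). It was also lost in fits to the 6 libraries compared (0.28, adjusted p = 0.148) and to the 12 A2 libraries (0.34, adjusted p = 0.0614).

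**Figure D2:**
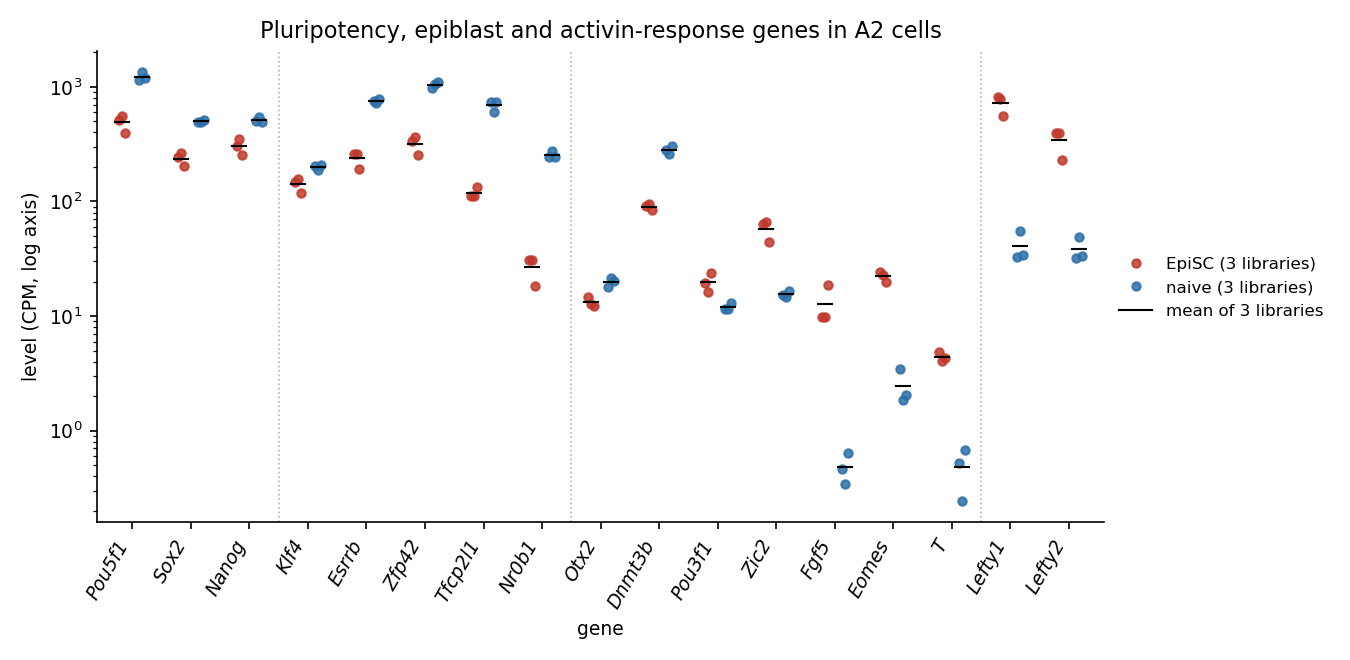
CPM on a log axis of 17 pluripotency, epiblast and activin-response genes, 1 point per library and a line at the mean of 3 libraries, EpiSC left of naive, with dotted lines between the general, naive, epiblast and activin-response genes. Pou5f1, Sox2, Nanog, the 5 naive genes, Otx2 and Dnmt3b sit lower in EpiSC libraries without reaching 0, and Pou3f1, Zic2, Fgf5, Eomes, T, Lefty1 and Lefty2 sit higher.

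Genes of the formative epiblast, the stage between naive and primed, moved in both directions: of 17 tested, 10 rose, 6 fell and 1 was not called. All 4 ligands rose. Fgf5, the standard primed marker (chromosome 5, 98254184 to 98277030), had 9.79, 9.74 and 18.7 CPM in EpiSC libraries, against 0.461, 0.343 and 0.634 CPM in naive libraries (log2 4.71 ± 0.32, adjusted p = 1.38e-11), and EpiSC replicate 3 was the highest library. Wnt8a had 33.4, 31.8 and 36.2 CPM in EpiSC libraries, against 0.922, 0.882 and 0.975 CPM in naive libraries (log2 5.18). Among the transcription factors, Sall2 (2.48), Sox4 (2.38) and Zic2 (1.89) rose, as did Pou3f1 (Oct6), which had 19.4, 16.2 and 23.6 CPM in EpiSC libraries, against 11.5, 11.4 and 12.9 CPM in naive libraries (log2 0.72 ± 0.14, adjusted p = 9.04e-05).

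Otx2 and Dnmt3b went the other way. Otx2 had 14.7, 12.8 and 12.2 CPM in EpiSC libraries, against 17.8, 21.5 and 20.1 CPM in naive libraries (log2 -0.59 ± 0.11, adjusted p = 6.6e-05), with all EpiSC libraries below all naive libraries. Dnmt3b, the de novo DNA methyltransferase of the epiblast, had 91, 96 and 84.2 CPM in EpiSC libraries, against 279, 259 and 304 CPM in naive libraries (log2 -1.64 ± 0.08, adjusted p = 1.43e-13). The log2 differences of EpiSCs from EPL cells were -2.16 for Otx2 (adjusted p = 1e-13) and -3.13 for Dnmt3b (adjusted p = 9.94e-18), EPL cells having averaged 59.2 ± 2.48 CPM and 792 ± 70.1 CPM of these genes (SD, n = 3 each). Both genes thus go against the label of postimplantation epiblast, and Fgf5, T and most of the other EpiSC markers go with it. Naive factors that EpiSCs are known for losing were lower but still present. Zfp42, Esrrb and Klf4 averaged 317.5, 237.3 and 141.1 CPM in EpiSC libraries, against 1049, 753.9 and 199.7 CPM in naive libraries. Of the formative genes, Etv4 (-1.45), Etv5 (-1.81) and Grhl2 (-1.96) also fell. Foxp1 (-0.33) fell as well, though it was not called under total-count scaling (-0.14, adjusted p = 0.266).

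The wider list of EpiSC markers held 23 tested genes, of which 20 rose and 2 fell, while Nodal was not called, and their median log2 difference was 2.82. T, the mesoderm factor brachyury (chromosome 17, 8434423 to 8442496), had 4.83, 4.07 and 4.33 CPM in EpiSC libraries, against 0.519, 0.245 and 0.682 CPM in naive libraries (log2 3.18 ± 0.33, adjusted p = 1.73e-08). Eomes, a T-box factor of the streak and of trophoblast, had 24.2, 23 and 19.7 CPM in EpiSC libraries, against 3.46, 1.86 and 2.05 CPM in naive libraries (log2 3.20). The keratin genes Krt8 (3.14), Krt18 (2.73) and Krt19 (2.96), and N-cadherin, encoded by Cdh2 (3.30), rose as well. The falls were in Sp5, a Wnt-responsive factor (-0.81), and Tdgf1, the Nodal coreceptor Cripto (-0.76).

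Of 17 primitive streak and mesendoderm genes tested, 13 rose, 1 fell and 3 were not called. Besides T and Eomes, the endoderm factors Sox17 (2.55) and Foxa2 (2.82) and the GATA factors Gata4 (3.71) and Gata6 (3.52) rose. The fall was in Evx1, a homeobox gene of the posterior streak, with 0.138, 0.196 and 0.0834 CPM in EpiSC libraries, against 1.1, 0.686 and 1.32 CPM in naive libraries (log2 -2.82). Mixl1 (0.414, 0.704 and 0.292 CPM in EpiSC libraries, against 0.865, 1.13 and 0.731 CPM in naive libraries), Gsc and Tbx6 were not called, at adjusted p = 0.0566, 0.484 and 0.239. The Mixl1 call depended on the fit. It was called lower without EpiSC replicate 2 (log2 -1.37, adjusted p = 0.0192), in fits to the 6 libraries compared (-0.99, adjusted p = 0.0361) and to the 12 A2 libraries (-0.92, adjusted p = 0.0363), and with no filter on low counts (-0.92, adjusted p = 0.0363). Mesp1 and Msgn1, factors of early mesoderm, were too low to be tested.

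Nodal and activin belong to the TGF-beta family and signal through SMAD2 and SMAD3, which turn on the genes of the pathway's inhibitors, Lefty1 and Lefty2. Of 19 pathway genes tested, 11 rose, 4 fell and 4 were not called. The ligand gene Nodal did not differ detectably, with 91, 88.9 and 88 CPM in EpiSC libraries, against 88.3, 99.8 and 86.2 CPM in naive libraries (log2 -0.03 ± 0.07, adjusted p = 0.685). Inhba, which encodes the subunit of activin A, had no count in naive libraries and 6.07, 4.3 and 9.96 CPM in EpiSC libraries, which is at least 131-fold higher when 3 counts over the naive group are taken as the floor. Inhbb, the activin B subunit, fell (82.7, 74 and 82.4 CPM in EpiSC libraries, against 239.9, 233 and 209 CPM in naive libraries, log2 -1.51), as did Gdf3 (-1.25).

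Both inhibitor genes of the Lefty family rose. Lefty1 had 808, 789 and 559 CPM in EpiSC libraries, against 33, 55.2 and 34.3 CPM in naive libraries (log2 4.13 ± 0.31, adjusted p = 9.46e-11), and Lefty2 had 396, 398 and 228 CPM in EpiSC libraries, against 32.3, 48.8 and 33.4 CPM in naive libraries (log2 3.16 ± 0.25, adjusted p = 2.35e-10). These are neighbouring paralogs of similar sequence on chromosome 1, so reads may have been split between them. In both genes EpiSC replicate 3 was the lowest EpiSC library and still far above every naive library. Against EPL cells the differences were 2.83 for Lefty1 (adjusted p = 1.49e-08) and 1.73 for Lefty2 (adjusted p = 9.8e-07). Among the transducers, Smad3 rose (1.89) and Smad2 was not called (-0.08).

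In the BMP pathway, 13 of 23 tested genes rose and 8 fell. All 4 receptor genes and all 3 SMAD transducer genes rose, including Bmpr1a (0.76), Acvr1 (1.90) and Smad1 (1.29). Of 8 target genes, 6 fell. Id1, an inhibitor of differentiation downstream of BMP and serum, had 21.1, 21.2 and 19.6 CPM in EpiSC libraries, against 87.1, 89.5 and 80 CPM in naive libraries (log2 -2.05), and Id2 (-1.65) and Id3 (-1.85) fell with it. The ligand Bmp4 fell (13.3, 12.9 and 14.8 CPM in EpiSC libraries, against 56.3, 63.9 and 59.7 CPM in naive libraries, log2 -2.14), while Bmp7 (3.24), Bmp2 (3.82) and the antagonist Grem1 (6.73) rose.

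FGF ligands signal through FGF receptors to the kinase ERK, and the EpiSC medium contained bFGF. Of 25 tested genes, 10 rose, 8 fell and 7 were not called, a split close to that over all genes. Of the ligands, Fgf8 rose (4.73) beside Fgf5, while Fgf4, the autocrine ligand of embryonic stem cells, fell (78.4, 87.2 and 56 CPM in EpiSC libraries, against 184, 195 and 179 CPM in naive libraries, log2 -1.33). Fgf17 had the deepest fall of the list, with 6.57, 6.88 and 5.38 CPM in EpiSC libraries, against 94.8, 109 and 93.9 CPM in naive libraries (log2 -3.98). The receptor gene Fgfr1 rose (265, 254 and 263 CPM in EpiSC libraries, against 115, 105 and 111 CPM in naive libraries, log2 1.24). ERK targets and feedback genes went both ways: Spry4 (-2.01), Spry2 (-1.20), Etv5 and Myc (-1.93) fell, Dusp5 (2.19) and Dusp4 (1.30) rose, and Dusp6 was not called (0.14, adjusted p = 0.0542), though it was called higher without naive replicate 2 (0.20, adjusted p = 0.0177), with a filter of 1 CPM in 3 libraries (0.15, adjusted p = 0.0422) and under total-count scaling (0.33, adjusted p = 0.000151).

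LIF binds a receptor of LIFR and gp130, acts through JAK1 and STAT3, and was present in the naive medium and not listed for the EpiSC medium. Of 18 genes tested, 13 fell, 3 rose and 2 were not called, and 11 of the 12 targets fell. Socs3, the feedback inhibitor induced by STAT3, had 70.3, 72 and 43.3 CPM in EpiSC libraries, against 188, 181 and 175 CPM in naive libraries (log2 -1.55 ± 0.12, adjusted p = 2.13e-10). Pim3 (-1.42), Bcl3 (-1.44) and Socs2 (-1.28) fell as well. Lifr itself fell (-0.84) and so did Stat3 (-0.53), whereas the kinase genes Jak1 (0.88) and Jak2 (2.62) and the target Junb (0.53) rose.

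Wnt ligands act through Frizzled receptors on beta-catenin and its TCF partners. Of 33 tested genes, 20 rose, 5 fell and 8 were not called. Of 8 ligands, 5 rose and none fell: Wnt8a, Wnt3 (5.65, 5.36 and 8.75 CPM in EpiSC libraries, against 0.519, 0.539 and 0.877 CPM in naive libraries, log2 3.33), Wnt5a (2.60), Wnt5b (1.90) and Wnt11 (1.54). Among the receptors, Fzd1 (4.00) and Fzd2 (2.87) rose, and Fzd5 fell (69.9, 64.4 and 51.2 CPM in EpiSC libraries, against 279.9, 251 and 275 CPM in naive libraries, log2 -2.12). The secreted inhibitor gene Dkk1 rose (5.19, 4.62 and 8.29 CPM in EpiSC libraries, against 0.288, 0.147 and 0.195 CPM in naive libraries, log2 4.83). In the Notch pathway 6 of 13 genes rose (46.2%) and 3 fell (23.1%), against 39.1% and 31.2% of all genes. The receptor genes Notch3 (1.67) and Notch2 (1.25) were among the rises.

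**Figure D3:**
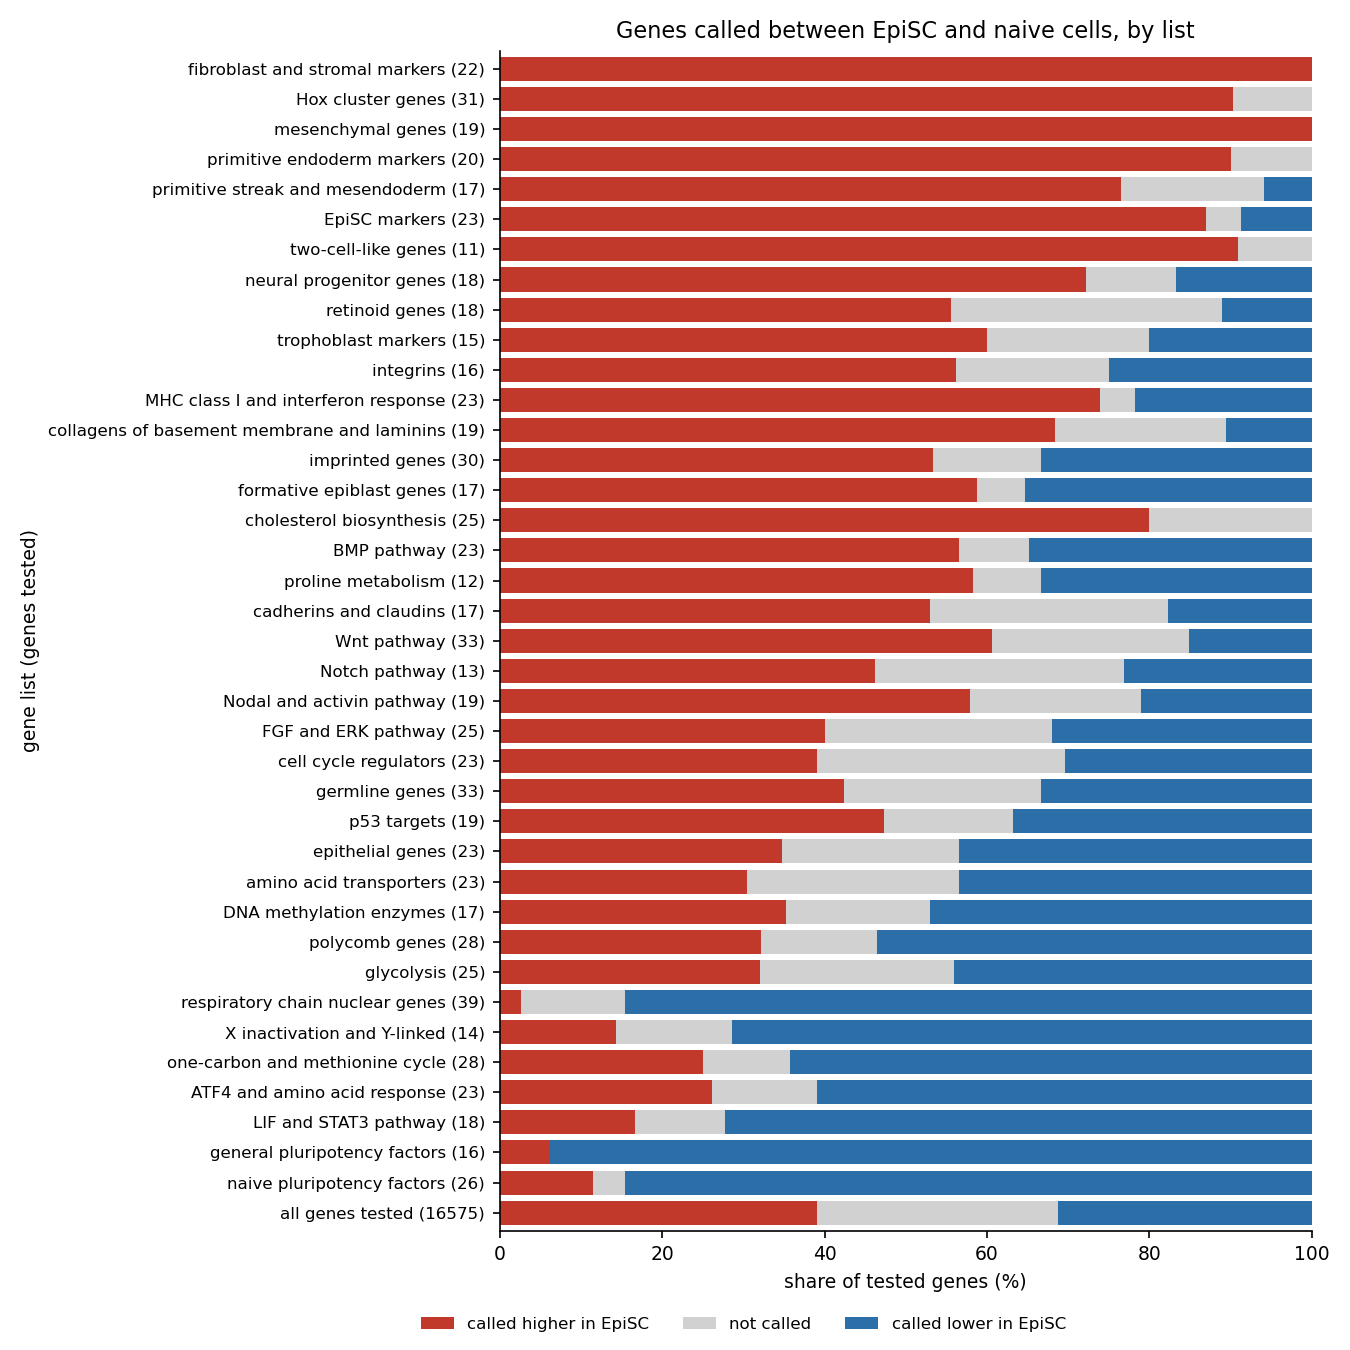
Each bar splits the tested genes of a list (their number in brackets) into the percent called higher, not called and called lower in EpiSCs, with lists ordered by their median log2 difference from the highest at the top and all 16575 genes tested at the bottom. All 22 fibroblast and all 19 mesenchymal genes are called higher, against 39.1% of all genes, while called-lower genes fill most of the naive and general pluripotency bars.

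The mesenchymal genes rose without exception: all 19 tested were higher in EpiSCs, with a median log2 difference of 4.05. Vim, the intermediate filament of mesenchymal cells, had 1219, 1058 and 1791 CPM in EpiSC libraries, against 175, 182 and 173 CPM in naive libraries (log2 2.94). Acta2, smooth muscle actin, had 233, 193 and 391 CPM in EpiSC libraries, against 0.98, 0.686 and 0.975 CPM in naive libraries (log2 8.27), and Tagln, an actin-binding protein of smooth muscle and myofibroblasts, had 313, 250 and 441 CPM in EpiSC libraries, against 5.82, 4.31 and 5.9 CPM in naive libraries (log2 5.97). EpiSC replicate 3 was the highest library for all of these. The transcription factor genes of the epithelial-mesenchymal transition also rose: Zeb2 (4.05), Twist1 (2.78), Snai1 (2.21), Snai2 (1.90) and Zeb1 (1.06). Prrx1, a homeobox gene of limb and body mesenchyme, had 2 counts in all naive libraries together and 45.4, 41.7 and 63.6 CPM in EpiSC libraries, a ratio of 1463 (95% interval 405 to 12080).

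The fibroblast and stromal list, given above as a sum, had 22 of 22 tested members higher and a median log2 difference of 7.81, or 6.47 with genes without naive counts set at their lower bound. Fibrillar collagen genes were among the largest rises. Col1a1 had 1177, 1104 and 1416 CPM in EpiSC libraries, against 1.04, 1.47 and 1.85 CPM in naive libraries (log2 9.70), and Col1a2 had 687, 637 and 825 CPM in EpiSC libraries, against 0.461, 0.588 and 0.585 CPM in naive libraries (log2 10.33). Receptor genes that mark stromal cells, Pdgfra (4.13) and Pdgfrb (3.35), and Thy1 (1.43) rose less. Against EPL cells, where 70.4% of all genes were called and 39.1% were higher in EpiSCs, all 22 were higher too.

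Epithelial genes divided by role. Of 23 tested, 8 rose, 10 fell and 5 were not called. All 4 keratin genes rose, and 6 of the 8 regulators fell with none rising. Esrp1, the epithelial splicing regulator, had 3.26, 3.44 and 3.42 CPM in EpiSC libraries, against 24.3, 22.9 and 25.5 CPM in naive libraries (log2 -2.84), and Grhl2, which maintains epithelial junctions, had 9.56, 10.3 and 10.1 CPM in EpiSC libraries, against 39.1, 36.6 and 41 CPM in naive libraries (log2 -1.96). Among junction genes, the claudin gene Cldn4 fell (12.4, 12.1 and 14.7 CPM in EpiSC libraries, against 88.4, 104 and 91.6 CPM in naive libraries, log2 -2.86), the desmosome gene Dsp rose (164, 148 and 217 CPM in EpiSC libraries, against 20.5, 14.4 and 22.9 CPM in naive libraries, log2 3.19), and Epcam was not called (0.15, adjusted p = 0.111) except under total-count scaling (0.34, adjusted p = 0.00098). Of 17 cadherin and claudin genes, 9 rose and 3 fell. Cdh11, a mesenchymal cadherin, had 1 count in all naive libraries and 52.1, 49.9 and 78.4 CPM in EpiSC libraries.

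Of 19 genes of the basement membrane, 13 rose, 2 fell and 4 were not called. Col4a1 (607, 540.1 and 715 CPM in EpiSC libraries, against 38.5, 27.6 and 38.8 CPM in naive libraries, log2 4.15) and Col4a2 (4.75), which encode the main chains of type IV collagen, rose, as did the laminin genes Lama4 (4.62) and Lamb1 (2.02). Lamc1 (-0.56) and Nid2 (-0.54) fell. Integrins are the receptors for this matrix, and 9 of 16 rose and 4 fell, the rises including Itgav (2.35) and Itgb1 (692, 619 and 883 CPM in EpiSC libraries, against 198, 174 and 185 CPM in naive libraries, log2 1.98). Fibroblasts also express many of these matrix genes, and the summed fibroblast level given above was also higher in EpiSC libraries. Its part in these differences was not tested.

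Primitive endoderm markers, which include several of the same matrix genes, rose in 18 of 20 cases with none falling (median log2 3.39). Gata4 had 26, 28.2 and 33.5 CPM in EpiSC libraries, against 1.61, 2.25 and 2.73 CPM in naive libraries (log2 3.71), and Gata6 had 21.4, 23.4 and 31.7 CPM in EpiSC libraries, against 1.96, 2.4 and 2.29 CPM in naive libraries (log2 3.52). Cubn, an endocytic receptor of the visceral endoderm, had 51.1, 75.4 and 89.6 CPM in EpiSC libraries, against 5.13, 3.09 and 5.02 CPM in naive libraries (log2 4.03). Hnf4a was not called, nor was Ttr, with 0.919, 3.09 and 0.792 CPM in EpiSC libraries, against 0, 0 and 2.05 CPM in naive libraries (log2 1.19, adjusted p = 0.235). Without naive replicate 3, Ttr had no naive count and was called higher (adjusted p = 0.000957), as it was with no filter on low counts (adjusted p = 0.00297). The summed level of the primitive endoderm list was 2715, 2477 and 3366 CPM in EpiSC libraries, against 599, 486 and 561 CPM in naive libraries (exact two-sided permutation p = 0.1). This sum includes the matrix genes of the list, and the part of fibroblasts in it was not tested. Of 18 neural progenitor genes, 13 rose and 3 fell, the rises including Nes, an intermediate filament also found in other progenitors (209.8, 188 and 347 CPM in EpiSC libraries, against 12.1, 9.9 and 12.1 CPM in naive libraries, log2 4.45), Sox1 (32.1, 33.8 and 34.4 CPM in EpiSC libraries, against 7.96, 6.52 and 9.12 CPM in naive libraries, log2 2.09) and Irx3 (5.48).

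Retinoic acid is made from retinol by retinaldehyde dehydrogenases, is cleared by CYP26 enzymes, and activates transcription through RAR-RXR receptors on paired half-sites. Of 18 retinoid genes tested, 10 rose, 2 fell and 6 were not called. Cyp26a1, the enzyme that clears retinoic acid and is itself induced by it, had 16.8, 19.6 and 13.3 CPM in EpiSC libraries, against 0.346, 0.245 and 0.39 CPM in naive libraries (log2 5.64 ± 0.30, adjusted p = 3.97e-13). Rarb, the receptor gene known for induction by its own ligand, had 4.32, 4.26 and 7.13 CPM in EpiSC libraries, against 0.404, 0.294 and 0.244 CPM in naive libraries (log2 4.05 ± 0.41, adjusted p = 9.95e-09). Stra8, a meiotic entry gene named for its induction by retinoic acid, had 88.8, 95.4 and 80.5 CPM in EpiSC libraries, against 2.19, 1.67 and 1.66 CPM in naive libraries (log2 5.59 ± 0.17, adjusted p = 4.07e-17). The groups did not overlap for any of the 3 genes.

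The promoters of these 3 genes are shown because they are classical responders that were each higher in EpiSCs. Each window is 300 bases from RefSeq on GRCm38.p6, 250 before and 50 after the gene's start, written 5′ to 3′ on the gene's strand: Cyp26a1 at chr19:37697558-37697857 on the plus strand, Rarb at chr14:16575427-16575726 on the minus strand, and Stra8 at chr6:34920698-34920997 on the plus strand. Capitals mark matches, on either strand, to the letters GNTCA, any 6 bases and GNTCA again, which is a direct repeat of receptor half-sites spaced by 5 bases with the first base of each half-site left free.
Cyp26a1: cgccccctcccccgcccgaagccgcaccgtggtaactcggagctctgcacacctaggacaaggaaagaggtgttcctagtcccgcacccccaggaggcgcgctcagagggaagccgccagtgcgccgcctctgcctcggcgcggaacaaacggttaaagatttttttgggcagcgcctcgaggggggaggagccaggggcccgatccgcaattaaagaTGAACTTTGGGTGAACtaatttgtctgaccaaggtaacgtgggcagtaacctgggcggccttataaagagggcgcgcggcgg
Rarb: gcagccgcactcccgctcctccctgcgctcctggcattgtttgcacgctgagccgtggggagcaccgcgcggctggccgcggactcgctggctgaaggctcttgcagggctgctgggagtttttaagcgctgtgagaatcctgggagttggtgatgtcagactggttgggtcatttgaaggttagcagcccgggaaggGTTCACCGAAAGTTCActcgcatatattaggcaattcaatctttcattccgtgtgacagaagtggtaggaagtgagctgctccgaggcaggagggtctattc
Stra8: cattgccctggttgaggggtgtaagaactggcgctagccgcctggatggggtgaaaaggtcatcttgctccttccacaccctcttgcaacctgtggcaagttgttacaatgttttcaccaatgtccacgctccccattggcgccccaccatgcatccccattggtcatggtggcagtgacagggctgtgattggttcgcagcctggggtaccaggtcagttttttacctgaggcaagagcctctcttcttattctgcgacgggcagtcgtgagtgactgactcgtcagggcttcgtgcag
The Cyp26a1 match lay at bases 219 to 234 of the window on the opposite strand, and the Rarb match at bases 199 to 214 on the gene's strand. The Stra8 window held no match. Of all 32851 windows, 283 held a match (0.861%), and 2 of the 14 tested retinoid genes with a window did. The first share counts windows and the second genes, and the list and the motif were both chosen for retinoic acid. No enrichment can be read from them. A match is a string of letters and not a measured binding site.

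The other retinoid genes that rose were mostly of transport and metabolism, in which 9 of 12 rose and none fell. Stra6, the membrane receptor for retinol uptake, had 20, 17.5 and 37.7 CPM in EpiSC libraries, against 0.0577, 0.147 and 0.146 CPM in naive libraries (log2 7.63). Dhrs3, a retinaldehyde reductase, had 23.6, 22.5 and 31.6 CPM in EpiSC libraries, against 0.807, 0.441 and 0.877 CPM in naive libraries (log2 5.19), and Cyp26b1 (4.43), the binding protein genes Crabp2 (3.64) and Crabp1 (1.87), and Rdh10 (1.57) rose. The main synthesis gene Aldh1a2 was not called, with 2.9, 2.74 and 2.88 CPM in EpiSC libraries, against 2.6, 2.6 and 2.63 CPM in naive libraries (log2 0.12, adjusted p = 0.595). Of the receptors, Rarg (-1.09) and Rara (-0.48) fell. Against EPL cells the log2 differences of Cyp26a1, Rarb and Stra8 were 5.32, 5.66 and 5.84 (adjusted p = 7.94e-13, 1.82e-09 and 4.09e-17).

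**Figure D4:**
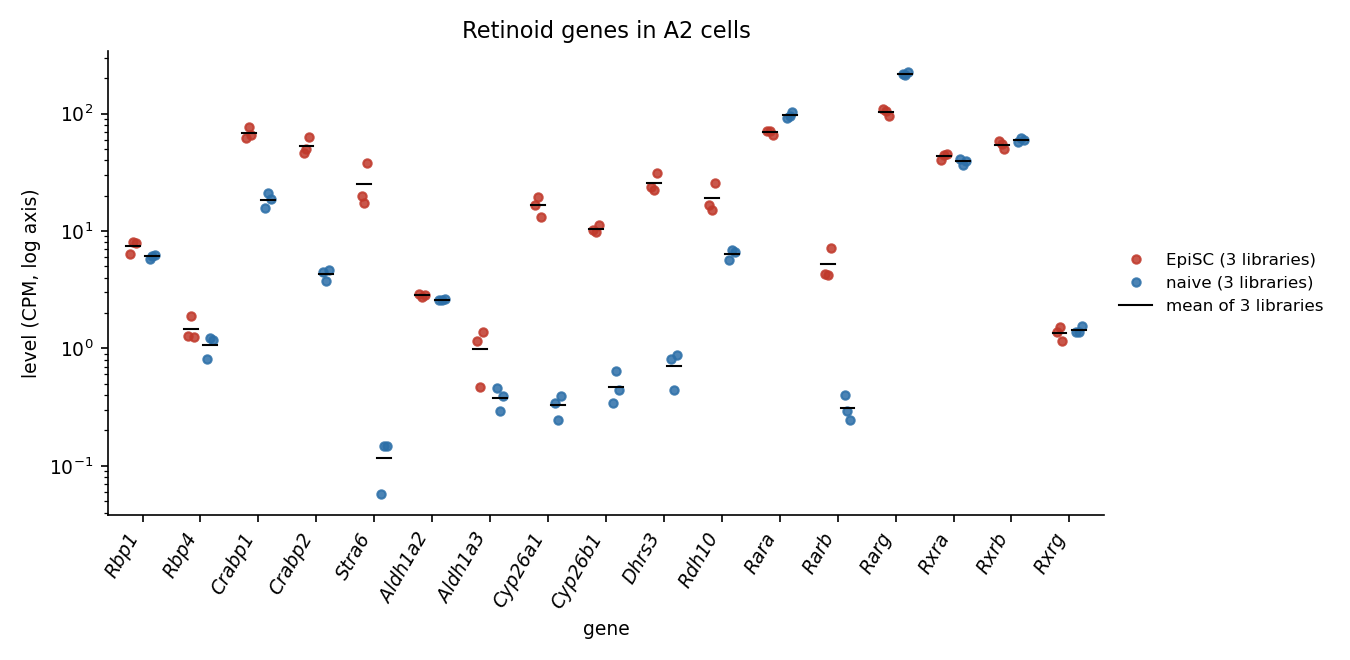
CPM on a log axis of the retinoid genes with a value above 0 in all 6 libraries, 1 point per library and a line at the mean of 3 libraries, EpiSC left of naive. Cyp26a1, Cyp26b1, Dhrs3, Rarb and Stra6 separate widely, while Aldh1a2 and the RXR genes lie close together in the groups.

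Hox genes, which pattern the body axis and are largely silent in pluripotent cells, were higher in EpiSCs across all 4 clusters. Of 31 tested, 28 rose, none fell, and Hoxc11, Hoxc12 and Hoxc13 at the end of the Hoxc cluster were not called. Without EpiSC replicate 3, Hoxc12 (log2 -2.32, adjusted p = 0.0193) and Hoxc13 (-0.55, adjusted p = 0.0353) were called lower. Without naive replicate 1 the Hoxc12 difference was -1.61 (adjusted p = 0.0359), and without naive replicate 3 the Hoxc13 difference was -0.57 (adjusted p = 0.0272). With DESeq2 both were called lower (adjusted p = 0.0455 for Hoxc12 and 0.0335 for Hoxc13), as were Hoxc12 with no filter on low counts (adjusted p = 0.0483) and Hoxc13 with RLE factors (adjusted p = 0.0439). The summed level of the Hox list was 114, 118 and 134 CPM in EpiSC libraries, against 9.23, 9.95 and 9.60 CPM in naive libraries, 12.7 times as high (exact two-sided permutation p = 0.1). Hoxa5 had 12.4, 14 and 13.8 CPM in EpiSC libraries, against 0.0577, 0 and 0 CPM in naive libraries, from 1 count in the naive group, a ratio of 785 (95% interval 141 to 31040). Hoxa2 had no naive count and 4, 4.46 and 4.46 CPM in EpiSC libraries, at least 83.9-fold higher. Hoxb1 had 3.68, 3.01 and 5.21 CPM in EpiSC libraries, against 0, 0 and 0.0487 CPM in naive libraries, a ratio of 230.4 (95% interval 41 to 9132) from 1 naive count. Fibroblasts of the body also express Hox genes, and the fibroblast sum was also higher in EpiSC libraries. Its part in the Hox difference was not tested.

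Of 33 germline genes, 14 rose (42.4%) and 11 fell (33.3%), a split close to that over all genes (39.1% and 31.2%). Under total-count scaling 7 fell. The rises included 9 of 16 meiosis genes and 4 of 8 germ cell RNA-binding genes. Dazl, an RNA-binding protein of germ cells, had 116, 125 and 139 CPM in EpiSC libraries, against 11.1, 10.8 and 11.2 CPM in naive libraries (log2 3.52 ± 0.14, adjusted p = 4.5e-15). Rhox5, an X-linked homeobox gene, rose (37.8, 44.9 and 38.2 CPM in EpiSC libraries, against 5.59, 7.15 and 6.82 CPM in naive libraries, log2 2.62), as did Taf7l (2.40). Of the 9 genes of germ cell fate, 6 fell, including Dppa3 (Stella), with 1.33, 1.64 and 1.46 CPM in EpiSC libraries, against 4.09, 4.95 and 5.8 CPM in naive libraries (log2 -1.74), Tfap2c (-1.40) and Prdm1 (-0.84).

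Among 30 imprinted genes, 16 rose, 10 fell and 4 were not called. Igf2, the paternally expressed growth factor gene, had 171, 174 and 291 CPM in EpiSC libraries, against 4.04, 2.94 and 4.14 CPM in naive libraries (log2 5.84 ± 0.25, adjusted p = 8.56e-15). H19, the maternally expressed RNA next to it, had 103, 131 and 114 CPM in EpiSC libraries, against 7.32, 6.03 and 8.58 CPM in naive libraries (log2 3.99 ± 0.19, adjusted p = 5.08e-14). Both genes of the locus were thus higher in every EpiSC library. Nnat (3.51), Plagl1 (2.73) and Sgce (2.59) rose, and Rtl1 (-2.08), Phlda2 (-1.93) and Snrpn (-1.14) fell. Allele-specific expression was not measured.

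Of 17 genes of DNA methylation, 6 rose (35.3%), 8 fell (47.1%) and 3 were not called, against 39.1% higher and 31.2% lower over all genes. Besides Dnmt3b, its cofactor Dnmt3l fell (84, 74.2 and 72.6 CPM in EpiSC libraries, against 314, 324 and 323 CPM in naive libraries, log2 -2.06), and Dnmt3a was not called (149, 144 and 133 CPM in EpiSC libraries, against 146, 137 and 154 CPM in naive libraries, log2 -0.04, adjusted p = 0.657). Of the TET enzymes that oxidise methylcytosine, Tet1 (249, 249.5 and 257 CPM in EpiSC libraries, against 942, 688 and 864 CPM in naive libraries, log2 -1.72) and Tet2 (-1.54) fell and Tet3 rose (1.27). Of the 11 genes of polycomb complex PRC2, a histone methyltransferase, 10 fell, among them Eed (88.4, 98.6 and 87.1 CPM in EpiSC libraries, against 270.5, 292 and 286 CPM in naive libraries, log2 -1.63), Jarid2 (-1.24) and Phf19 (-1.18), while Phf1 rose (1.06). Of the 17 PRC1 genes, 8 were higher (47.1%) and 5 lower (29.4%), against 39.1% and 31.2% of all genes. Cbx7 (-0.93) was among the falls and Bmi1 (1.75) among the rises.

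Of 39 nuclear genes of the respiratory chain, 33 fell, 1 rose and 5 were not called, with a median log2 difference of -0.43. Sdhc, a subunit of complex II, had the largest fall (99.2, 101 and 84.9 CPM in EpiSC libraries, against 192, 225 and 193 CPM in naive libraries, log2 -1.10), and the rise was in Cox7a1 (1.06). Under total-count scaling this median was -0.25. Of 25 glycolysis genes, 11 fell (44%) and 8 rose (32%), against 31.2% and 39.1% of all genes. Among the 21 enzymes 11 fell and 5 rose. Ldha, lactate dehydrogenase, had 753, 684 and 332 CPM in EpiSC libraries, against 1235, 1428 and 1208 CPM in naive libraries (log2 -1.13), and Hk2, hexokinase, had 185, 171 and 158 CPM in EpiSC libraries, against 421, 369 and 411 CPM in naive libraries (log2 -1.23). EpiSC replicate 3 was well below the other EpiSC libraries for Ldha and for the transporter genes Slc2a1 (670, 511 and 237 CPM in EpiSC libraries, against 613, 636 and 567 CPM in naive libraries, adjusted p = 0.111) and Slc16a3 (149, 105 and 31.1 CPM in EpiSC libraries, against 50.1, 63.6 and 51.5 CPM in naive libraries, log2 0.79, adjusted p = 0.0339), which overlapped between groups. Without EpiSC replicate 1, the Slc16a3 difference was 0.30 (adjusted p = 0.406) and the Slc2a1 difference was -0.70 (adjusted p = 0.00163). With no filter on low counts Slc2a1 was called lower (-0.35, adjusted p = 7.1e-05). Leaving out EpiSC replicate 2, naive replicate 1 or naive replicate 3 also ended the Slc16a3 call, at adjusted p between 0.0887 and 0.0937. It was lost too with DESeq2 (adjusted p = 0.077) and in a fit to the 6 libraries compared (adjusted p = 0.138).

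Of 28 genes of one-carbon metabolism and the methionine cycle, 18 fell and 7 rose, and all 9 serine and glycine genes of the list fell. Psat1, phosphoserine aminotransferase, had 181, 182 and 164 CPM in EpiSC libraries, against 544, 606 and 542 CPM in naive libraries (log2 -1.68), and Psph (-1.34) and Gcat (-1.28) fell with it. Atf4, the factor that induces such genes when amino acids are short, had 72.9, 79.5 and 77.3 CPM in EpiSC libraries, against 255, 298 and 273 CPM in naive libraries (log2 -1.85 ± 0.07, adjusted p = 2.39e-15), and of 23 genes of its response 14 fell and 6 rose, with 13 falls among 17 targets, including Trib3 (-1.83), Cth (-1.86) and Asns (-1.04). Of 12 genes of proline metabolism, 7 rose and 4 fell. The breakdown genes Prodh (-0.81) and Aldh4a1 (-0.26) fell, although Aldh4a1 was not called under total-count scaling (-0.08, adjusted p = 0.377). All 6 genes that hydroxylate proline and lysine in collagen rose, including P4ha1 (107, 93 and 61.4 CPM in EpiSC libraries, against 26.4, 24.9 and 24.9 CPM in naive libraries, log2 1.78) and Plod2 (1.51). Of 23 amino acid transporter genes, 7 rose (30.4%) and 10 fell (43.5%), against 39.1% and 31.2% of all genes. The cationic transporter gene Slc7a3 had 93.1, 93.7 and 59.6 CPM in EpiSC libraries, against 244, 259.9 and 239.9 CPM in naive libraries (log2 -1.59). Of 25 cholesterol genes, 20 rose and none fell. Cyp51, lanosterol demethylase, had 135, 123 and 113 CPM in EpiSC libraries, against 38.9, 43.7 and 41.6 CPM in naive libraries (log2 1.58).

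Of 23 cell cycle genes, 9 rose (39.1%) and 7 fell (30.4%), a split close to that over all genes. Among the inhibitors of the list, 6 of 10 rose and 1 fell. Cdkn2b, the p15 inhibitor induced by TGF-beta, had 35.1, 32.7 and 45.5 CPM in EpiSC libraries, against 2.6, 1.47 and 2.05 CPM in naive libraries (log2 4.22), Cdkn1a (p21) had 252, 242 and 388 CPM in EpiSC libraries, against 53, 57.1 and 55.2 CPM in naive libraries (log2 2.41), and Cdkn2a rose as well (2.10). Among cyclins, Ccnd2 rose (231, 192 and 335 CPM in EpiSC libraries, against 50, 42.5 and 46.7 CPM in naive libraries, log2 2.44) and Ccne1 fell (-0.67). Of 19 p53 genes, 9 rose (47.4%) and 7 fell (36.8%), against 39.1% and 31.2% of all genes. Trp53 fell (-0.89), and the targets Fas (3.07) and Pmaip1 (2.03) rose.

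The 12 largest rises among well expressed genes were Postn, Tm4sf1, Pcdh7, Col3a1, Dcn, Cdh11, Tnc, Ccdc80, Lox, Ccl2, Bgn and Lyz2. Postn, Col3a1, Dcn, Tnc, Ccdc80 and Bgn encode proteins of the extracellular matrix, and Lox a matrix enzyme. Tnc (tenascin C), a matrix glycoprotein, had 508, 375 and 764 CPM in EpiSC libraries, against 0.0577, 0.343 and 0.244 CPM in naive libraries (log2 11.23 ± 0.33, adjusted p = 2.91e-17). Col3a1, a fibrillar collagen, had 279, 271 and 294 CPM in EpiSC libraries, against 0, 0.049 and 0.146 CPM in naive libraries (log2 11.87 ± 0.23, adjusted p = 3.77e-19), and Bgn, the proteoglycan biglycan, had 325, 327 and 471 CPM in EpiSC libraries, against 0.231, 0.049 and 0.39 CPM in naive libraries (log2 10.67 ± 0.26, adjusted p = 9.95e-19). Lox, which crosslinks collagen, had 3 counts in the naive group and 132, 123 and 143 CPM in EpiSC libraries, a ratio of 2574 (95% interval 881 to 12490). The chemokine gene Ccl2 had 1 naive count and 41.4, 42 and 54.1 CPM in EpiSC libraries, a ratio of 2676 (95% interval 479.9 to 105700).

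Genes without any naive count and with at least 1 CPM on average in EpiSCs numbered 46, of which 45 were tested (0.271%). In the other direction there were 0 such genes, so no gene expressed at that level in naive cells was without counts in EpiSCs. Postn (periostin, chromosome 3, 54361109 to 54391037) had 31.1, 30.5 and 29 CPM in EpiSC libraries and was at least 586-fold higher. Tm4sf1 (27.7, 26.9 and 25.4 CPM in EpiSC libraries) and the protocadherin gene Pcdh7 (21.6, 20 and 33.3 CPM) were at least 518-fold and 485-fold higher. Dcn (decorin), at 20.5, 21.4 and 27.6 CPM in EpiSC libraries, was at least 451-fold higher, and Ccdc80, at 13.7, 11.6 and 20.7 CPM, at least 297-fold. At a level of 5 CPM or more, 11 genes met the rule.

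Of the 12 largest falls, 11 were in Ddx3y, Uty, Mid1, Eif2s3y, Cpsf4l, Napsa, Ubap1l, Apol6, Fgf17, Catip and Adgrd1. Napsa, an aspartic protease, had 0.735, 0.626 and 0.834 CPM in EpiSC libraries, against 14, 15.3 and 10.8 CPM in naive libraries (log2 -4.18 ± 0.18, adjusted p = 1.41e-14). Adgrd1, an adhesion G protein-coupled receptor, had 0.597, 0.626 and 0.625 CPM in EpiSC libraries, against 9.92, 9.8 and 8.04 CPM in naive libraries (log2 -3.89 ± 0.20, adjusted p = 2.14e-13). Cpsf4l had a log2 difference of -4.20, Ubap1l -4.12, Apol6 -3.99 and Catip -3.95.

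Of these 12, 3 lie on the Y chromosome and Mid1, a ubiquitin ligase gene on the X chromosome, spans the pseudoautosomal boundary. Ddx3y, an RNA helicase gene, had 1.24, 1.64 and 2.25 CPM in EpiSC libraries, against 42.7, 34.5 and 45.5 CPM in naive libraries (log2 -4.57 ± 0.17, adjusted p = 1.49e-15). Uty had 0.322, 0.508 and 0.959 CPM in EpiSC libraries, against 13.5, 12.3 and 14.2 CPM in naive libraries (log2 -4.46 ± 0.26), Eif2s3y 0.781, 1.09 and 1.17 CPM in EpiSC libraries, against 17.4, 19.6 and 23 CPM in naive libraries (log2 -4.29 ± 0.15), and Mid1 6.2, 4.81 and 9.17 CPM in EpiSC libraries, against 159, 107 and 145 CPM in naive libraries (log2 -4.35 ± 0.23). The summed level of the 7 Y-linked genes of the list was 2.71, 3.87 and 5.17 CPM in EpiSC libraries, against 74.5, 67.2 and 83.5 CPM in naive libraries (exact two-sided permutation p = 0.1), and 63.4 to 82.0 CPM in A2 EPL libraries. Their X-linked partners differed less, with log2 differences of -0.69 for Kdm6a and -0.33 for Ddx3x, which was not called under total-count scaling (-0.14, adjusted p = 0.178). Xist, the RNA that coats the inactive X, had 33.3, 28.5 and 47.9 CPM in EpiSC libraries, against 8.53, 3.63 and 4.92 CPM in naive libraries (log2 2.70 ± 0.31, adjusted p = 8.3e-08). Xist overlaps its antisense gene Tsix, and the kit did not mark strand, so reads of the overlap cannot be assigned.

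The difference was uneven over the autosomes. On chromosome 1, 27.0% of 1025 genes were higher and 46.5% lower, with a median log2 difference of -0.28. On chromosome 8, 58.8% of 864 genes were higher and 13.8% lower, with a median of 0.47. Relative to all genes these medians lay at -0.36 and 0.39, while the other autosomes lay between -0.10 and 0.12. In bins of 20 Mb, all 10 bins of chromosome 1 lay below the median of all genes (-0.54 to -0.22) and all 7 bins of chromosome 8 above it (0.33 to 0.54).

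Chromosome 1 carried 5.96, 6.01 and 6.17% of the nuclear counts in EpiSC libraries, against 8.0, 7.67 and 7.87% in naive libraries. The share was 7.29 to 7.46% in A2 EPL libraries and 7.60 to 7.72% in A2 ground state libraries, so that the EpiSC libraries were below every other A2 library. Chromosome 8 carried 6.42, 6.37 and 6.30% in EpiSC libraries, against 4.81, 4.82 and 4.81% in naive libraries, and 4.81 to 5.02% in the other A2 libraries. In the libraries of the second line, D3, the shares were 5.69 to 5.98% for chromosome 1 and 6.06 to 6.49% for chromosome 8. The summed level of the Y-linked genes was 153.4 to 240.7 CPM in D3 libraries, against 2.71 to 5.17 CPM in EpiSC libraries. Of the genes named here, Catip, Fzd5, Inhbb, Lamc1, Nr5a2, Sdhc and Tfcp2l1, which fell, and Col3a1, Lefty1, Lefty2, Prrx1, Rdh10 and Sox17, which rose, lie on chromosome 1. Cdh11, Col4a1, Col4a2, Dusp4, Fgfr1, Irx3, Itgb1, Junb, Smad1 and Sox1, which rose, and Cdh1, Klf2 and Zfp42, which fell, lie on chromosome 8. The part of the chromosome-wide shift in their differences was not tested.

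**Figure D5:**
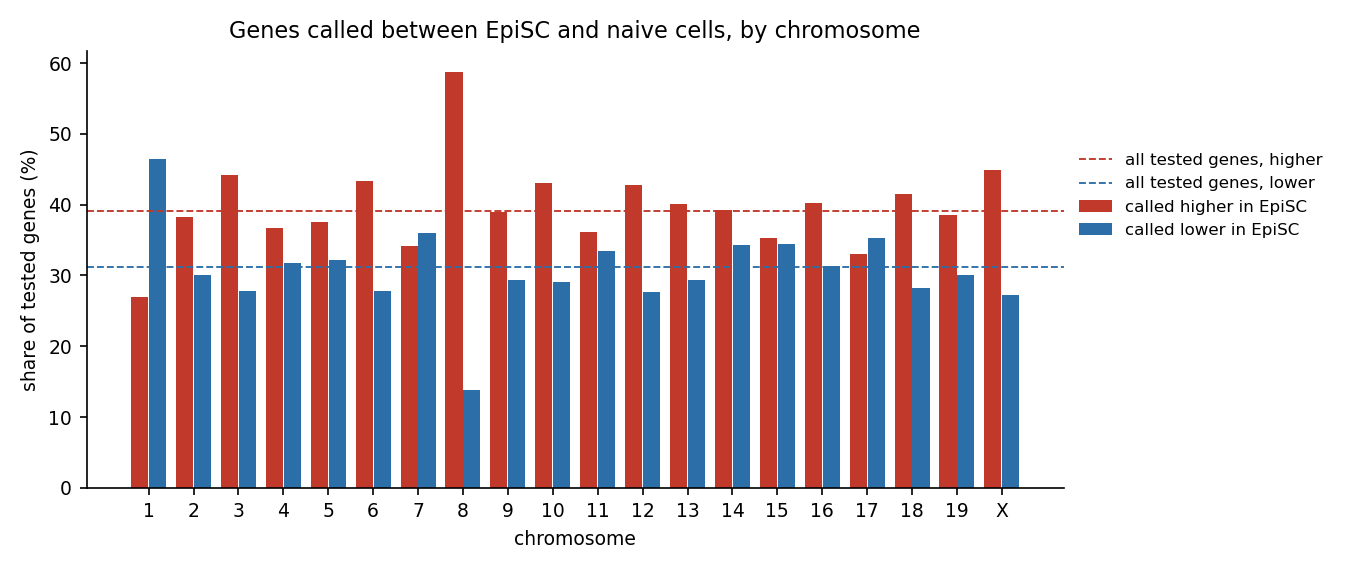
Percent of the tested genes of each autosome and of X called higher (left bar) and called lower (right bar) in EpiSCs, with dashed lines at the 39.1% and 31.2% of all genes tested. Among the autosomes and X, which are those shown, chromosome 8 has the tallest bar of higher genes (58.8%) and the shortest of lower genes (13.8%), and chromosome 1 the reverse (27.0% higher and 46.5% lower).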

How the data were processed

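RNA was sequenced from 21 libraries, of which 3 EpiSC and 3 naive libraries of A2 are compared here and the 3 A2 EPL libraries serve as a second comparison. The authors deposited raw counts per gene. HISAT2, SAMtools, featureCounts and GRCm38 are named by the submitters' processing notes, without versions or a strand setting. All 39396 identifiers matched GENCODE M21 on GRCm38, the source of coordinates. Column names matched the labels and 0 columns of values were left out.

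The filter filterByExpr (minimum count 10, minimum total 15) kept 16575 genes, at least 99.89% of the counts in any library. A quasi-likelihood model was fitted with edgeR 4.0.16 (limma 3.58.1, R 4.3.3) to all libraries with 1 mean per group of 7 and TMM scaling. TMM factors were 1.136 to 1.145 in EpiSC libraries and 1.001 to 1.003 in naive libraries. P-values were adjusted by Benjamini-Hochberg over all genes tested. The labels do not say that replicates were separate cultures. P-values then measure only the spread among these samples, which may be technical. On simulated counts for the same 16575 genes, 200 genes were changed, as many up as down. Of those changed by a log2 of 1, 69% were recovered, and of those changed by 2, 95%. Of the calls, 1.8% were of unchanged genes. The real comparison called 70.3% of genes and had unequal TMM factors between groups, so these rates may not hold for it.

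Named genes were the 12 largest rises and falls among called genes whose higher group averaged 5 CPM or more and whose libraries did not overlap, leaving out predicted gene models, plus 12 fixed pluripotency genes and members of 38 lists. In lists of over 25 tested members these were the 6 largest changes each way, ligands and receptors. Hoxc11, Hoxc12 and Hoxc13 fall outside this rule and were chosen after their values were seen. A few genes that meet the rule are not reported here. The libraries and lists were chosen with earlier results of these data known. Folds against groups without counts use a floor of 3 counts over the group, and ratios from 1 to 3 counts carry 95% Poisson intervals, which cover counting error only. Promoter windows were found for 72.1% of the genes tested, under the 80% needed, so a comparison of promoter classes is void. Alternatives were RLE and total-count scaling, other filters, DESeq2 1.42.0, fits on fewer libraries, glmTreat, a replicate block and leaving out each library.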

Additional observations from a re-analysis of the deposited data

How the results depend on the processing

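Over all alternatives, 5864 to 7838 genes were called higher and 3854 to 5328 lower, with the extremes under total-count scaling (7838 and 3854) and in fits restricted to the 6 libraries (5864 higher) or with RLE factors (5328 lower). Tested against a 2-fold change with glmTreat, 2607 genes were higher and 682 lower. Total-count scaling gave ratios of EpiSC over naive of 0.545 for the general pluripotency sum, 0.498 for the naive sum and 14.5 for the Hox sum, and medians of -0.094, 0.66 and 0.36 for chromosomes 1, 8 and X. Under it the LIF list had 5 members higher, and 7 germline, 2 integrin and 1 cadherin or claudin members were lower. The list median of the DNA methylation genes turned to 0.01, as did the signs of uncalled Dnmt3a (0.15), Nodal (0.15), Smad2 (0.11), Pecam1 (0.10) and Hnf4a (0.038). Primitive streak members lower numbered 2 with no filter, within the 6 or the 12 A2 libraries and with the replicate block, and 1 to 2 without single libraries. X-inactivation and Y-linked members higher numbered 1 with DESeq2 or the 1 CPM filter, and 1 to 2 without single libraries. Hox members lower numbered 1 with RLE factors or no filter, 2 with DESeq2, and 0 to 2 without single libraries. Glycolysis members higher numbered 5 within the 6 libraries and 5 to 9 without single libraries, and one-carbon members higher 4 and 4 to 6. Genes without naive counts numbered 11 at a minimum of 5 CPM. Without single libraries the uncalled Nodal difference ranged from -0.081 to 0.037 and that of Hand1 from -0.60 to 0.46. The cause was not tested. Of 3338 values of 239 named genes, 3292 kept direction and call.

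The submitters' design text calls the samples paired without saying how. EpiSC and naive libraries of the same number deviated from their group means with r = -0.06, 0.33 and 0.16. For 2 of 3 EpiSC libraries the best correlation was with another number, so the numbers were not taken as pairs in the main fit. With so few libraries, these correlations cannot show that a pairing is absent. The replicate block called 6424 genes higher and 5069 lower. Of the named genes it changed the call of 3: Calcoco2 (0.33, adjusted p = 0.0638) and Slc16a3 (0.69, adjusted p = 0.0661) were not called under it, and Mixl1 (-0.95, adjusted p = 0.0133) was called lower.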

Other observations

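Antigen presentation by MHC class I, which is low in embryonic stem cells, was higher in EpiSCs in all 10 genes tested. B2m, the light chain shared by class I molecules, had 71, 70.2 and 94.5 CPM in EpiSC libraries, against 6.57, 6.47 and 7.26 CPM in naive libraries (log2 3.54 ± 0.18, adjusted p = 1.61e-13). The immunoproteasome gene Psmb8 (5.13), the peptide transporter genes Tap2 (4.80) and Tap1 (2.51), and the heavy chain gene H2-K1 (2.32) rose. Of 13 interferon-response genes, 7 were higher (53.8%) and 5 lower (38.5%), against 39.1% and 31.2% of all genes. Ifitm1, a membrane protein abundant in early embryonic cells, had 19.8, 20.5 and 18.6 CPM in EpiSC libraries, against 165, 197 and 179 CPM in naive libraries (log2 -3.20), while Stat2 (1.15) and Irf1 (1.02) rose. The summed fibroblast level given in the report was also higher in EpiSC libraries, and its part in these differences was not tested.

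Genes of the mouse 2-cell embryo, which a small share of embryonic stem cells expresses at any time, rose in 10 of 11 cases. Zscan4d had 31.4, 37.6 and 38.6 CPM in EpiSC libraries, against 6.4, 4.12 and 5.31 CPM in naive libraries (log2 2.77), and Tmem92 had 11.4, 15.2 and 17.2 CPM in EpiSC libraries, against 1.79, 0.98 and 1.22 CPM in naive libraries (log2 3.47). Members of the Zscan4 and Usp17l families are near-identical copies, so counts may have been split between them. Against EPL cells, where 39.1% of all genes were higher in EpiSCs, all 11 were higher. Of 15 trophoblast markers, 9 rose, 3 fell and 3 were not called. Among their transcription factors, Gata3 (1.65, 1.88 and 3.75 CPM in EpiSC libraries, against 0.634, 0.196 and 0.146 CPM in naive libraries, log2 2.94) and Esx1 (2.59) rose beside Eomes, Ascl2 (-1.47) and Tfap2c fell, and Hand1 was not called. Prl3d1 and Tpbpa, genes of placental trophoblast, had no count in any of the 6 libraries.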
